A study of Mus musculus with 14 samples.

Results

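Lysine acetylation is set by acetyltransferases (writers), removed by deacetylases (erasers) and bound by bromodomain and YEATS proteins (readers), and the messenger RNA of 39 such genes was followed in mouse leukemia cells targeted at Sgf29. The 39 genes were taken by symbol from the 22155 genes of the count table and stand outside SAGA and ATAC, the coactivator complexes that hold SGF29. They fall into 9 writers, 11 classical deacetylases, 7 sirtuins and 12 readers, and 38 of them had enough counts to be tested, all but the reader Cecr2. Naa40, listed with the writers, acetylates the N-terminus of histones and not a lysine. The tested cells were MLL-AF9-Cas9+ cells transduced with sgSgf29 (3 libraries), and the controls were the same cells transduced with sgCtrl, which targets nonessential sequence (3 libraries). Cells of both groups came from leukemia that a retroviral MLL-AF9 fusion had started in mice, expressed Cas9, received the sgRNA from a lentiviral vector, and were kept in puromycin at 2 µg/ml for 3 days. They grew in medium with stem cell factor and interleukins, so that both groups are cultured blasts and not leukemia in the animal. The labels do not say whether the replicate numbers are separate cultures or different sgRNA sequences, and each p-value therefore reflects no more than the scatter among these libraries, which may be technical.

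Acetyl groups on histone tails loosen chromatin and serve as docking sites, and writers take them from acetyl-CoA. Classical deacetylases use zinc and are divided into class I enzymes of nuclear corepressors, class IIa enzymes that shuttle between nucleus and cytoplasm, class IIb enzymes that act mainly in the cytoplasm, and the single class IV enzyme, whereas sirtuins use NAD. Several of these genes are known in leukemia, as fusion partners (Crebbp, Ep300 and Kat6a) or as drug targets (BET readers and class I deacetylases).

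The libraries held 16085601 to 20185751 gene counts in the sgSgf29 group and 16003990 to 21786618 in the sgCtrl group, and 3 counts, the floor that a count of 0 allows, came to 0.135 to 0.201 CPM (a gene's count relative to the total of its library, after TMM scaling, which uses a trimmed mean of gene-wise ratios). This floor covers counting error only. Sgf29 itself measured 12.6, 13.4 and 17.4 CPM in the sgSgf29 libraries, against 36.2, 40.4 and 40.4 CPM in the sgCtrl libraries. It was lower in every sgSgf29 library (edgeR's quasi-likelihood test, log2 fold change -1.43 with a standard error of 0.11, adjusted p = 2.88e-10). The change across the transcriptome was broad, as 69.8% of 11169 genes passed the same test at an adjusted p under 0.05. Of 12 markers of MLL-AF9 leukemic myeloid cells all were tested, 5 were lower and 5 higher, and their summed level was 2036 to 2056 CPM in sgSgf29 and 1848 to 1932 CPM in sgCtrl libraries. Of 21 tested mature myeloid markers 18 were higher and 2 lower, and their summed level was 27021 to 28592 CPM in sgSgf29 and 9003 to 9798 CPM in sgCtrl libraries. Markers of erythroid, megakaryocyte, mast, B, T and NK cells and fibroblasts were low. The highest was the megakaryocyte marker Gp9 in sgSgf29 cells (5.44 CPM, against 6.75 CPM in sgCtrl cells) and the basophil and mast cell protease Mcpt8 in sgCtrl cells (2.80 CPM in sgSgf29 cells, against 9.61 CPM in sgCtrl cells). Counts were 0 in all 6 libraries for 6 of 9 erythroid, 3 of 8 megakaryocyte, 6 of 7 mast cell, 1 of 6 B cell, 4 of 8 T and NK cell and 3 of 7 fibroblast markers in the table. The part of the marker changes in the results that follow was not tested. In such bulk samples, fewer cells of a type and less RNA per cell cannot be told apart.

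Upstream sequence was read for the members with an entry in the RefSeq promoter table of GRCm38.p6, 32 of the 39, since members that move in opposite directions can be set side by side there. Kat6a, Hdac1, Hdac3, Hdac10, Brd8, Cecr2 and Atad2 had none. In the 250 bases before the start, the GC box (GGGCGG, searched on both strands, like every motif here) was found in 27 of 32 members (84.4%) and in 32.7% of the 32851 promoters of the table. It was present in 10 of the 11 members with an entry that were lower and in 9 of the 10 that were higher, so it did not separate the directions. The CCAAT box (CCAAT) was found in 13 of 32 members and 33.8% of all promoters, the E-box (CACGTG) in 4 and 6.02%, the ETS motif (CCGGAAG) in 6 and 6.91%, the E2F motif (TTTGGCGC or TTTCCCGC) in 2 and 1.30%, and the TATA box (TATAAA) in 2 and 12.4%. The median number of CG dinucleotides was 19.5 in the 44 entries of members and 6 in all promoters. All promoters were not limited to genes with enough counts to be tested, so these differences are not read as particular to acetylation genes. A match is a match of letters only. For every motif, a member was counted if any of its entries held a match, whereas the percentages over all promoters count single entries. The shares of members and of all promoters are therefore not like for like. The 3 class IIa deacetylases Hdac9, Hdac7 and Hdac5 are shown because the first pair fell and Hdac5 rose in sgSgf29 cells. Hdac6, a class IIb deacetylase that fell, and Bptf, a reader that rose, stand beside them. Each sequence runs 5′ to 3′ on the minus strand and holds no annotated exon (GENCODE), bases inside the RefSeq gene were left out, and capitals mark the motif matches. Only the most upstream entry of each gene is printed, whereas the counts above took any entry of the gene. A gene such as Hdac9 or Hdac7 can thus be counted for a motif that its printed sequence lacks.
Hdac9, chr12:34917096-34917345: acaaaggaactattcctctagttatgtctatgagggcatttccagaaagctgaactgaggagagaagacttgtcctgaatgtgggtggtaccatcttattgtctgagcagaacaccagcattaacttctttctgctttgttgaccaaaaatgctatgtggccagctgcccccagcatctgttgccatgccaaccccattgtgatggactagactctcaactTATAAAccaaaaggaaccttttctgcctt
Hdac7, chr15:97844503-97844752: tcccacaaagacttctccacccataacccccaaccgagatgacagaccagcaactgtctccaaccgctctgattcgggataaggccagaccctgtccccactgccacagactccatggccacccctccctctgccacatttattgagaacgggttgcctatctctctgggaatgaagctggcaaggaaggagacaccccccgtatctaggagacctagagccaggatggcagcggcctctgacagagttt
Hdac5, chr11:102230173-102230422: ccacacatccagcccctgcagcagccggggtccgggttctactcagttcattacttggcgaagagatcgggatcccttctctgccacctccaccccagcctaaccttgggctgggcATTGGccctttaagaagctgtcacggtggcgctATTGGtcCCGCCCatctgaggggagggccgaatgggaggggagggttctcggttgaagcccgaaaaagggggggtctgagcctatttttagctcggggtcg
Hdac6, chrX:7948048-7948139: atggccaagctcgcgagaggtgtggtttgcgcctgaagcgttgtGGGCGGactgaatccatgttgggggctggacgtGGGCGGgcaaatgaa
Bptf, chr11:107132148-107132397: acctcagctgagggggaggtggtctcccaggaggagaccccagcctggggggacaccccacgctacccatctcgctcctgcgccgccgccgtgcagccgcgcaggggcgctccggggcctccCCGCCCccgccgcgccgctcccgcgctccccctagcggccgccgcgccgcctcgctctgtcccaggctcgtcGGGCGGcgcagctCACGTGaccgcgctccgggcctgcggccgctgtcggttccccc
The Hdac9 sequence had 1 TATA box, no GC box and 0 CG dinucleotides. The Hdac7 sequence had 6 CG dinucleotides and none of the motifs, and the Hdac5 sequence had 12, with 2 CCAAT boxes and 1 GC box. The Hdac6 stretch of 92 bases had 2 GC boxes and 7 CG dinucleotides. The Bptf sequence, with 34 CG dinucleotides and a GC content of 79.2%, had 2 GC boxes and 1 E-box.

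Of the 38 tested members, 15 were lower and 12 were higher in sgSgf29 cells at an adjusted p under 0.05 (edgeR's quasi-likelihood test), and 11 did not pass. That is 71.1% of the members, near the 69.8% of all genes tested, of which 34.4% were lower and 35.4% higher, so the number of called members is no feature of the acetylation genes. The sgSgf29 and sgCtrl libraries did not overlap for 24 of 38 members, against 72.1% of all genes. The members' changes were small on the whole, with a median absolute log2 fold change of 0.29, against 0.42 over all genes. The median log2 fold change was -0.03 for the members and 0.01 for all genes. A change of 1.5-fold or more was called for 4 members, against 34.3% of all genes (15.4% lower and 18.9% higher). All 4 were classical deacetylases and all were lower, Hdac10, Hdac11, Hdac9 and Hdac6.

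The calls of each class are given beside the 34.4% of all genes that were lower and the 35.4% that were higher. Among the classical deacetylases 7 of 11 were lower, 2 higher and 2 did not pass, with a median log2 fold change of -0.24, although with library size alone as the scale 5 were called lower, since Hdac3 (0.07) and Hdac7 (-0.01) were not called. Of the 9 writers 1 was lower and 4 were higher, with a median of 0.00. Of the 7 sirtuins 2 were lower and 3 higher (median 0.14), and of the 11 tested readers 5 were lower and 3 higher (median -0.12). With library size alone, 0 writers were called lower and 6 higher, and 0 sirtuins lower and 4 higher. In that scaling 2 readers were lower and 5 higher, so the direction in which most reader calls lay depends on the scaling. Whether the classes differ from one another was not tested.

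**Figure D1:**
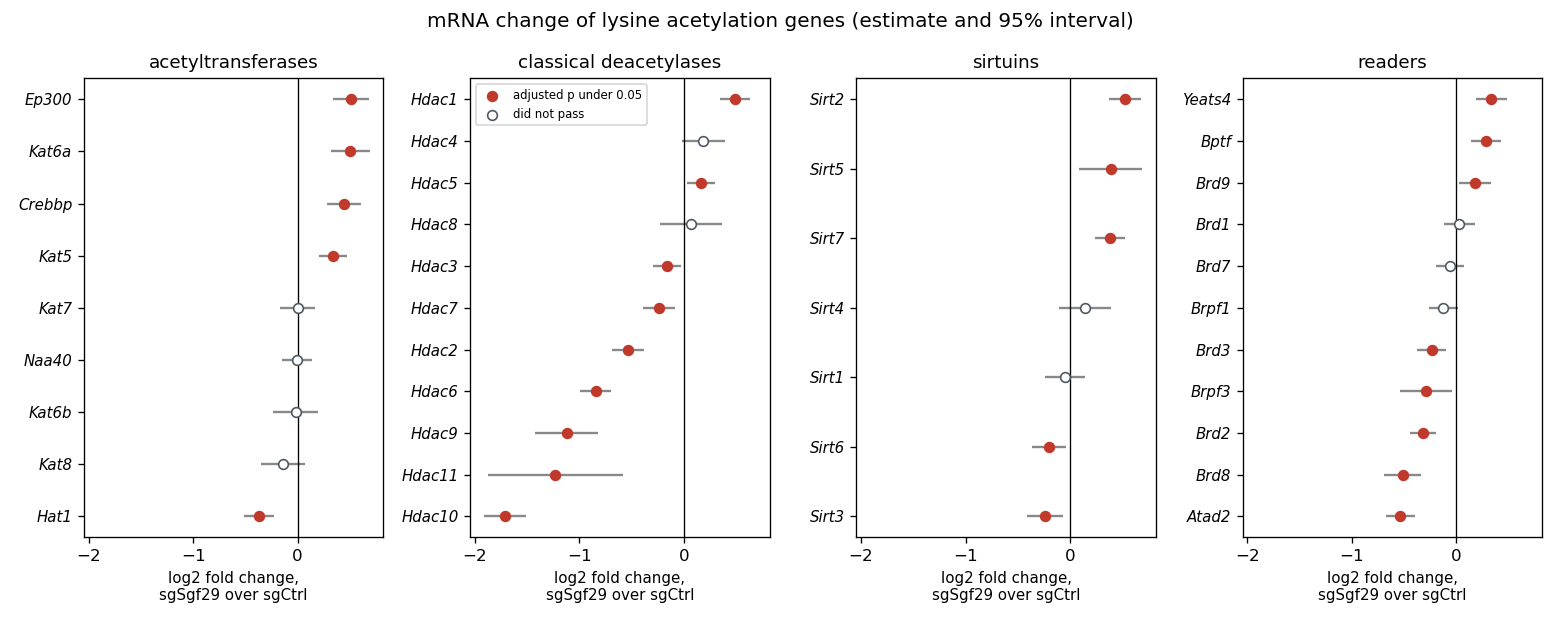
Log2 fold change (sgSgf29 over sgCtrl, x axis) of the 38 tested acetylation genes in 4 classes. Points are estimates from edgeR, lines their 95% intervals, filled points passed at an adjusted p under 0.05. The classical deacetylases span -1.71 (Hdac10) to 0.49 (Hdac1), and all other members lie between -0.54 (Atad2) and 0.52 (Sirt2). With library size alone as the scale, the called members Hdac3 and Sirt6 lie at 0.07 and 0.03 instead of below 0.

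The largest change of all members was that of Hdac10, a class IIb enzyme that deacetylates polyamines, at chr15:89123303-89128700 (GRCm38). Hdac10 measured 12.8, 12.4 and 11.4 CPM in the sgSgf29 libraries, against 41.5, 42.9 and 35.6 CPM in the sgCtrl libraries. Every sgSgf29 library was far below every sgCtrl library, and the spread within each group was small beside the gap. The difference was 3.27-fold (log2 fold change -1.71, 95% interval -1.91 to -1.51, adjusted p = 4.2e-12, edgeR). Hdac6, the other class IIb enzyme and the main deacetylase of tubulin (chrX:7930116-7948047), had 43.8, 43.0 and 40.5 CPM in sgSgf29 libraries, against 78.0, 80.4 and 69.9 CPM in sgCtrl libraries. It too had no overlap between groups (log2 fold change -0.84, 95% interval -0.99 to -0.69, adjusted p = 1.91e-09, edgeR). Summed per kilobase of exon, the 2 class IIb genes held 10.9 ± 0.497 CPM per kb in sgSgf29 cells and 24.9 ± 2.08 CPM per kb in sgCtrl cells (SD, n = 3 each).

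Hdac9 and Hdac11 were lower as well, both from low levels. Hdac9, a class IIa enzyme that represses MEF2 target genes (chr12:34047580-34917095), had 5.63, 7.57 and 6.06 CPM in sgSgf29 libraries, against 12.7, 16.3 and 13.3 CPM in sgCtrl libraries. The highest sgSgf29 library was below the lowest sgCtrl library, a 2.18-fold difference (log2 fold change -1.12, 95% interval -1.42 to -0.82, adjusted p = 6.55e-07, edgeR). Hdac11, the single class IV enzyme, which removes fatty acyl groups from lysine (chr6:91156670-91174692), was counted 13, 24 and 21 times in sgSgf29 libraries and 33, 46 and 35 times in sgCtrl libraries. These are 0.762, 1.08 and 1.03 CPM, against 2.10, 3.08 and 1.75 CPM. The groups were apart, but the interval of the log2 fold change was wide, -1.88 to -0.58 around -1.23 (adjusted p = 0.00149, edgeR).

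**Figure D2:**
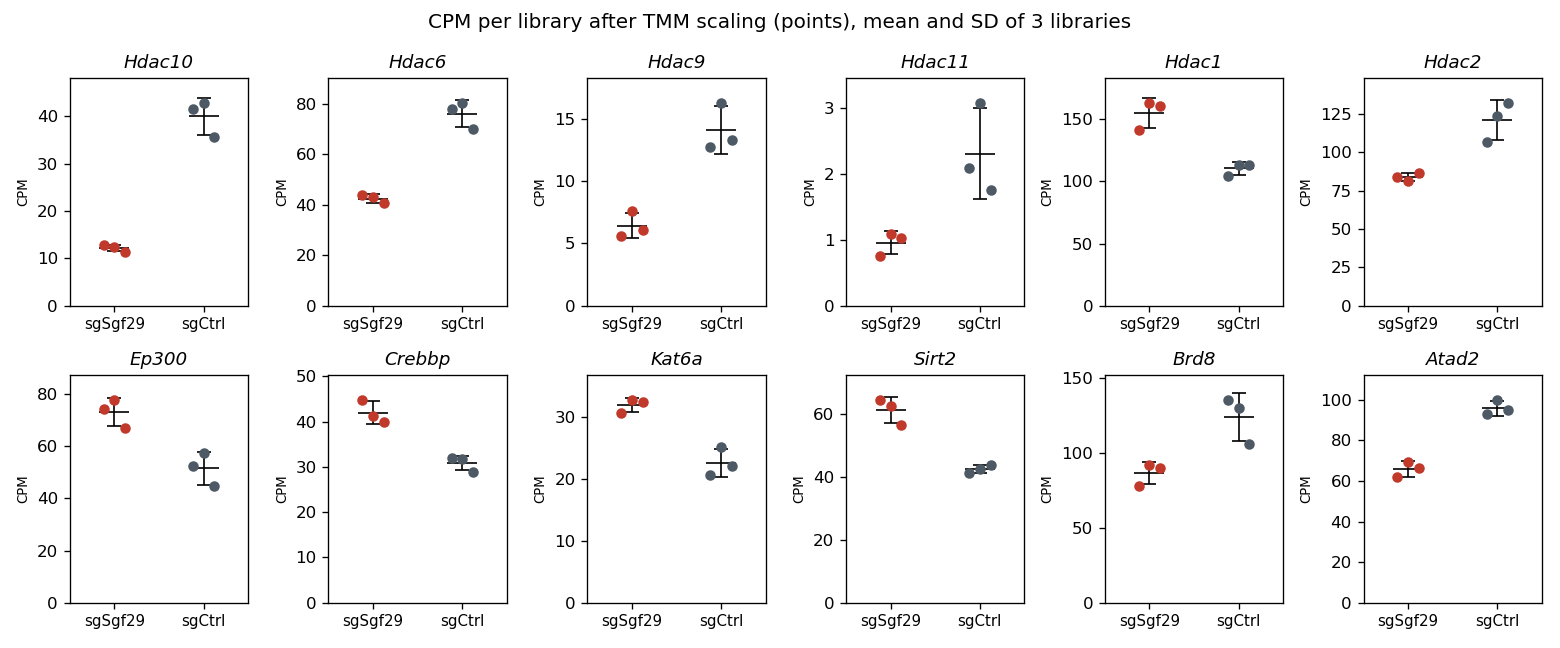
CPM after TMM scaling of 12 acetylation genes in the 3 sgSgf29 (left) and 3 sgCtrl (right) libraries. Points are libraries, and the bars give the mean and SD. For Hdac10, Hdac6, Hdac9, Hdac11, Hdac2, Brd8 and Atad2 the 3 sgSgf29 points lie below the 3 sgCtrl points, and for Hdac1, Ep300, Crebbp, Kat6a and Sirt2 they lie above.

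The 2 nuclear class I enzymes that share corepressor complexes moved in opposite directions. Hdac1 (chr4:129516104-129542646) had 141.3, 163.1 and 160.5 CPM in sgSgf29 libraries, against 104.5, 113.3 and 113.4 CPM in sgCtrl libraries. Hdac2 (chr10:36974297-37001889) had 83.6, 81.0 and 86.4 CPM in sgSgf29 libraries, against 106.6, 123.7 and 132.1 CPM in sgCtrl libraries. Neither gene overlapped between the groups, with Hdac1 high and Hdac2 low in each sgSgf29 library. The log2 fold change was 0.49 (95% interval 0.35 to 0.63, adjusted p = 2.37e-06, edgeR) for Hdac1 and -0.53 (95% interval -0.68 to -0.38, adjusted p = 2.06e-06, edgeR) for Hdac2. Within a library, which needs no scaling, Hdac1 had 1.69, 2.01 and 1.86 counts for each count of Hdac2 in sgSgf29 cells, against 0.980, 0.916 and 0.858 in sgCtrl cells. Hdac1 was therefore the higher counted of the pair in each sgSgf29 library and the lower counted in each sgCtrl library, a 2.02-fold change of the ratio. This change of order holds for counts, which are not scaled for length. Per kilobase of merged exon, Hdac1 was above Hdac2 in sgCtrl cells too (means of 32.0 and 27.0 CPM per kb). The exact permutation test of the ratio over the 6 libraries gave p = 0.1, two-sided, the smallest it can give with 3 against 3, so no ratio could pass 0.05.

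Hdac1 has an annotated pseudogene, Gm10093, that may share reads with it. Gm10093 measured 43.8, 44.4 and 49.2 CPM in sgSgf29 libraries and 41.9, 45.3 and 42.2 CPM in sgCtrl libraries, with overlap between the groups (adjusted p = 0.298, edgeR). With the counts of Hdac1 and Gm10093 summed, an alternative chosen after seeing the data, the log2 fold change of Hdac1 was 0.39 (adjusted p = 2.99e-05, edgeR). The ratio of Hdac1 to Hdac2 leaves Gm10093 out, and with it Hdac1 would be above Hdac2 in each sgCtrl library as well.

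The other class I genes changed little. Hdac3, the catalytic subunit of NCoR/SMRT, had 84.6, 79.7 and 76.6 CPM in sgSgf29 libraries, against 91.6, 91.0 and 87.1 CPM in sgCtrl libraries. Its sgSgf29 libraries were just below the others (log2 fold change -0.16, adjusted p = 0.0296, edgeR). In edgeR its call was lost without sgSgf29 2 (adjusted p = 0.109), sgSgf29 3 (0.158), sgCtrl 1 (0.0874) or sgCtrl 2 (0.0667), and with upper-quartile scaling (0.0627). With library size alone its sign turned, to 0.07, where the median of all genes stood at 0.24. Hdac8, a deacetylase of cohesin, did not pass (log2 fold change 0.07, 95% interval -0.23 to 0.36), with 10.4 to 15.5 CPM in sgSgf29 and 11.1 to 13.2 CPM in sgCtrl libraries.

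Among the class IIa genes, which bind MEF2 and have little deacetylase activity of their own, 2 fell, 1 rose and 1 did not pass. Hdac7, the class IIa member of lymphoid and endothelial cells, had 59.2, 66.1 and 59.2 CPM in sgSgf29 libraries, against 66.7, 76.8 and 74.4 CPM in sgCtrl libraries. The sgSgf29 libraries were all lower, though the highest of them came near the lowest sgCtrl library (log2 fold change -0.24, adjusted p = 0.00604, edgeR), and with library size alone the value was -0.01. Hdac5 had 87.3, 84.3 and 88.6 CPM in sgSgf29 libraries, against 82.4, 73.8 and 75.8 CPM in sgCtrl libraries (log2 fold change 0.17, adjusted p = 0.0302, edgeR). The call of Hdac5 was lost in edgeR without sgSgf29 1 (adjusted p = 0.0576), sgSgf29 3 (0.0741) or sgCtrl 2 (0.121), and in DESeq2 (0.0582). Hdac4 had a log2 fold change of 0.19 (95% interval -0.02 to 0.39) and passed without sgSgf29 3 (0.29, adjusted p = 0.0184, edgeR) and with library size alone (0.42, adjusted p = 0.000937, edgeR). The level of the 4 class IIa genes per kilobase was 21.4 ± 0.427 CPM per kb in sgSgf29 and 22.3 ± 0.474 CPM per kb in sgCtrl cells (SD, n = 3 each).

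Per length of merged exon, the 11 classical deacetylases summed to 118.6 ± 1.90 CPM per kb in sgSgf29 cells and 131.4 ± 4.31 CPM per kb in sgCtrl cells (SD, n = 3 each), with no overlap. These sums use TMM-scaled CPM, with TMM factors of 1.06 to 1.10 in sgSgf29 and 0.917 to 0.934 in sgCtrl libraries. The factors differ between the groups by more than the sums do, so the gap between the sums depends on the scaling. Hdac1 was the largest part of the sum of the 11 genes in both groups. It took 37.9% ± 2.37 of it in sgSgf29 cells and 24.4% ± 0.594 in sgCtrl cells. Hdac2 took 15.8% ± 0.648 in sgSgf29 cells and 20.5% ± 1.86 in sgCtrl cells. Hdac10 had a share of 3.05% ± 0.196 in sgSgf29 and 9.01% ± 0.875 in sgCtrl cells, and Hdac6 one of 6.15% ± 0.295 in sgSgf29 and 9.96% ± 0.734 in sgCtrl cells. None of these 4 shares overlapped between the groups, and neither did those of Hdac4, Hdac5, Hdac9 and Hdac11. Among single genes the groups did not overlap for 72.1% of all genes tested. The lack of overlap is therefore not read as a feature of the 4 shares. The class I genes alone summed to 86.1 ± 2.00 CPM per kb in sgSgf29 and 83.7 ± 3.98 CPM per kb in sgCtrl cells, values that overlapped, whereas within that sum Hdac1 took 52.2% ± 2.85 in sgSgf29 and 38.3% ± 0.106 in sgCtrl cells.

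**Figure D3:**
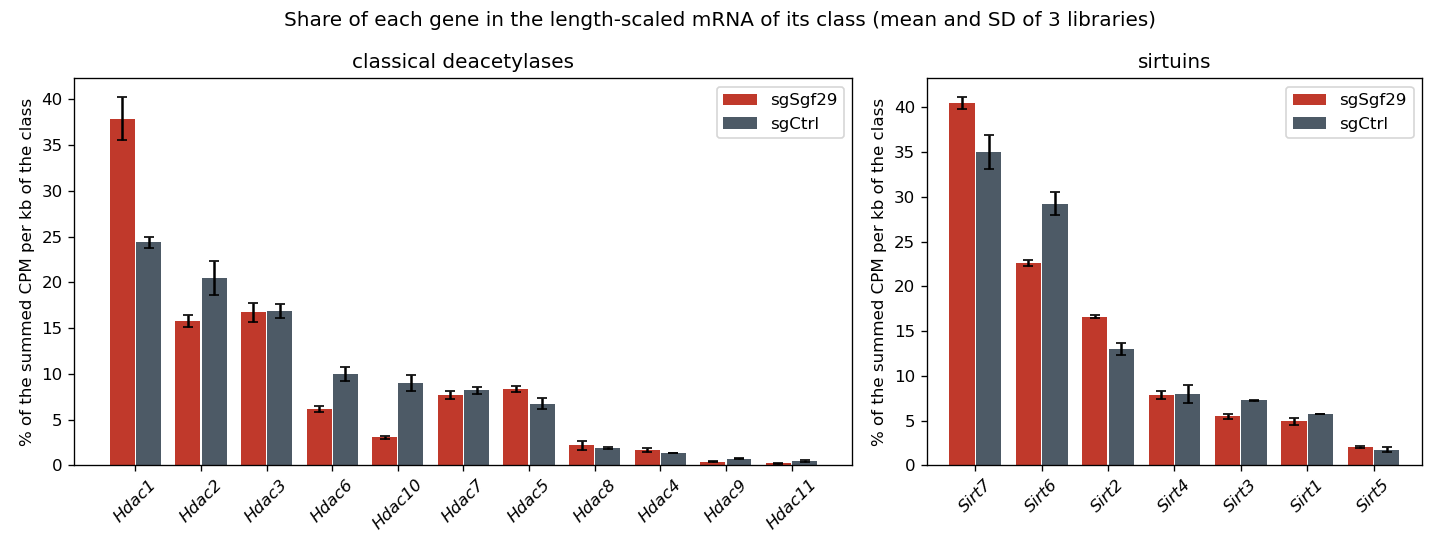
Share of each classical deacetylase (left) and sirtuin (right) in the CPM per kb of merged exon summed over its class, in percent. Bars are means of 3 libraries with the SD, sgSgf29 beside sgCtrl. Hdac1 takes 37.9% in sgSgf29 and 24.4% in sgCtrl cells, and Sirt6 takes 22.6% in sgSgf29 and 29.3% in sgCtrl cells.

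Sirtuins of all compartments were measured, and 3 rose. Sirt2, the cytosolic sirtuin that deacetylates tubulin (chr7:28766752-28788665), had 64.5, 62.3 and 56.5 CPM in sgSgf29 libraries, against 41.1, 42.5 and 43.9 CPM in sgCtrl libraries. All sgSgf29 libraries stood well above (log2 fold change 0.52, 95% interval 0.37 to 0.67, adjusted p = 1.87e-06, edgeR), the largest rise of all members. Sirt7, the nucleolar sirtuin (chr11:120618371-120625014), had 158.2, 158.7 and 140.3 CPM in sgSgf29 libraries, against 122.8, 117.6 and 110.0 CPM in sgCtrl libraries, again without overlap (log2 fold change 0.38, adjusted p = 4.43e-05, edgeR). Sirt7 shares 2.41% of its exon length with Mafg on the same strand, and Sirt2 shares 0.834% with Nfkbib on the opposite strand. Sirt5, the mitochondrial desuccinylase, had 9.96, 9.15 and 8.26 CPM in sgSgf29 libraries, against 6.04, 7.10 and 7.64 CPM in sgCtrl libraries. Its groups were apart by a narrow gap (log2 fold change 0.39, adjusted p = 0.021, edgeR), and the call was lost in edgeR without sgSgf29 1 (adjusted p = 0.069), sgSgf29 2 (0.0519) or sgCtrl 1 (0.101).

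Sirt3, the main deacetylase of the mitochondrial matrix, and Sirt6, a nuclear deacetylase of histone tails, fell slightly. Sirt3 had 24.3, 23.4 and 23.7 CPM in sgSgf29 libraries, against 28.8, 27.1 and 28.3 CPM in sgCtrl libraries (log2 fold change -0.24, adjusted p = 0.0157, edgeR). The groups did not overlap, but 12.7% of Sirt3's exon length is shared with Psmd13 and Ric8a on the opposite strand, and the call was lost without sgSgf29 2 (adjusted p = 0.0705, edgeR) or sgCtrl 1 (0.0505). Sirt6 had 48.6, 47.3 and 42.2 CPM in sgSgf29 libraries, against 56.2, 48.6 and 53.8 CPM in sgCtrl libraries, so that the highest sgSgf29 and the lowest sgCtrl library met (log2 fold change -0.20, adjusted p = 0.0255, edgeR). The Sirt6 call was lost in edgeR without sgSgf29 2 (adjusted p = 0.0559), sgSgf29 3 (0.176, log2 fold change -0.13) or sgCtrl 1 (0.121). With library size alone, Sirt3 was at -0.01 and Sirt6 at 0.03, not called. Sirt1, the nuclear sirtuin most like yeast Sir2, and the mitochondrial Sirt4 did not pass, with 95% intervals of the log2 fold change of -0.24 to 0.15 and -0.11 to 0.39. With library size alone, Sirt4 was called higher (0.37, adjusted p = 0.00927, edgeR). Per kilobase, the 7 sirtuins summed to 73.1 ± 4.27 CPM per kb in sgSgf29 and 64.8 ± 2.01 CPM per kb in sgCtrl cells (SD, n = 3 each), without overlap.

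Among the writers, the paired coactivators p300 and CBP both rose. Ep300 (chr15:81586209-81652077) had 74.4, 77.8 and 67.1 CPM in sgSgf29 libraries, against 52.6, 57.3 and 44.8 CPM in sgCtrl libraries. Crebbp (chr16:4081334-4213957) had 44.8, 41.3 and 39.8 CPM in sgSgf29 libraries, against 31.9, 31.7 and 29.0 CPM in sgCtrl libraries. Each was higher in every sgSgf29 library. The log2 fold change was 0.51 (95% interval 0.33 to 0.68, adjusted p = 1.68e-05, edgeR) for Ep300 and 0.44 (95% interval 0.28 to 0.61, adjusted p = 4.61e-05, edgeR) for Crebbp. Their ratio within a library was 1.66, 1.88 and 1.68 in sgSgf29 and 1.65, 1.81 and 1.54 in sgCtrl libraries and overlapped (exact permutation p = 0.4).

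Of the 5 MYST enzymes 2 rose and 3 did not pass. Kat6a, the MOZ acetyltransferase of hematopoietic stem cells (chr8:22859442-22943259), had 30.6, 32.7 and 32.3 CPM in sgSgf29 libraries, against 20.7, 25.0 and 22.0 CPM in sgCtrl libraries. All sgSgf29 libraries were higher (log2 fold change 0.50, 95% interval 0.32 to 0.69, adjusted p = 4.65e-05, edgeR). Kat5, the catalytic subunit of NuA4/TIP60 (chr19:5603014-5611556), had 66.8, 70.2 and 72.3 CPM in sgSgf29 libraries, against 55.8, 53.9 and 55.9 CPM in sgCtrl libraries (log2 fold change 0.34, adjusted p = 0.000116, edgeR). Its groups were also apart, and 12.1% of its exon length is shared with Rnaseh2c on the opposite strand. Kat6b, the MORF paralog of Kat6a, had a log2 fold change of -0.02 (95% interval -0.23 to 0.20), Kat7, the HBO1 enzyme, one of 0.00 (-0.16 to 0.16), and Kat8, the MOF enzyme that acetylates histone H4 in MSL and NSL, one of -0.14 (-0.35 to 0.07). With library size alone these 3 stood at 0.21, 0.23 and 0.09, and Kat7 passed (adjusted p = 0.0187, edgeR). Kat6b has annotated pseudogenes that may share reads with it, and Kat8 shares 4.22% of its exon length with Prss8 on the opposite strand. The 5 MYST genes summed to 42.4 ± 1.58 CPM per kb in sgSgf29 and 37.98 ± 0.1003 CPM per kb in sgCtrl cells (SD, n = 3 each).

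Hat1, which acetylates newly made histones before they enter chromatin (chr2:71389260-71441622), was the one writer of the 9 that was called lower. It had 57.4, 56.2 and 62.6 CPM in sgSgf29 libraries, against 70.8, 75.7 and 81.0 CPM in sgCtrl libraries. All sgSgf29 libraries were lower (log2 fold change -0.37, 95% interval -0.52 to -0.22, adjusted p = 0.000101, edgeR), and with library size alone the value was -0.14 and not called (adjusted p = 0.0966). Of 18 proliferation genes 15 were lower and 0 higher in the same libraries, against 34.4% lower and 35.4% higher over all genes, with 2289 to 2694 CPM in sum in sgSgf29 and 3246 to 3487 CPM in sgCtrl libraries, and their part in the fall of Hat1 was not tested. Naa40, the N-terminal acetyltransferase of histones, did not pass, with 56.1 to 58.3 CPM in sgSgf29 and 55.0 to 61.5 CPM in sgCtrl libraries (log2 fold change 0.00, 95% interval -0.14 to 0.14), but was called higher with library size alone (0.23, adjusted p = 0.00672, edgeR).

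Among the readers, the largest fall was that of Atad2, a bromodomain ATPase of replicating chromatin (chr15:58094044-58135525). Atad2 had 61.8, 69.4 and 66.6 CPM in sgSgf29 libraries, against 92.8, 100.03 and 94.9 CPM in sgCtrl libraries. The groups were far apart (log2 fold change -0.54, 95% interval -0.68 to -0.40, adjusted p = 4.15e-07, edgeR), and the proliferation genes moved with it as with Hat1, which was not tested. Brd8, the bromodomain subunit of NuA4/TIP60, had 78.1, 92.0 and 89.7 CPM in sgSgf29 libraries, against 135.5, 130.3 and 106.0 CPM in sgCtrl libraries (log2 fold change -0.51, 95% interval -0.69 to -0.34, adjusted p = 1.61e-05, edgeR), and its sgSgf29 libraries were all lower. Yeats4, the YEATS subunit of the same complex, moved the other way. It had 69.0, 70.3 and 73.1 CPM in sgSgf29 libraries, against 53.8, 53.2 and 61.2 CPM in sgCtrl libraries, all higher (log2 fold change 0.33, adjusted p = 0.000273, edgeR).

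The 2 BET genes on the list, readers of acetylated histones at active promoters and enhancers, both fell. Brd2 (chr17:34112019-34122814) had 177.4, 179.6 and 176.1 CPM in sgSgf29 libraries, against 224.9, 227.6 and 212.4 CPM in sgCtrl libraries. Brd3 (chr2:27445576-27507657) had 73.5, 71.1 and 70.2 CPM in sgSgf29 libraries, against 80.3, 82.6 and 89.9 CPM in sgCtrl libraries. Both were lower in every sgSgf29 library. The log2 fold change was -0.32 (adjusted p = 0.000105, edgeR) for Brd2 and -0.24 (adjusted p = 0.00325, edgeR) for Brd3, and with library size alone neither passed (-0.09 and -0.01). Brd2 shares 4.6% of its exon length with H2-DMa on the opposite strand.

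Among readers that belong to remodelers, Bptf, the large subunit of the NURF remodeler, had 61.7, 58.6 and 59.8 CPM in sgSgf29 libraries, against 50.5, 51.3 and 46.7 CPM in sgCtrl libraries, all higher (log2 fold change 0.28, adjusted p = 0.00113, edgeR). Brd9, of noncanonical SWI/SNF, had 93.2, 96.1 and 88.9 CPM in sgSgf29 libraries, against 84.2, 89.99 and 72.7 CPM in sgCtrl libraries, with overlap (log2 fold change 0.18, adjusted p = 0.0413, edgeR). Its call was lost in edgeR without sgSgf29 1 (adjusted p = 0.0888), sgSgf29 2 (0.136), sgCtrl 1 (0.0595) or sgCtrl 3 (0.208, log2 fold change 0.09), with RLE scaling (0.0546), with TMM factors made without ribosomal protein genes (0.0512) and in DESeq2 (0.0772). Brd7, of the PBAF form of SWI/SNF, did not pass (log2 fold change -0.06, 95% interval -0.19 to 0.07), but was called higher with library size alone (0.17, adjusted p = 0.0216, edgeR).

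Of the 3 scaffolds of MYST enzymes, Brd1 (log2 fold change 0.03, 95% interval -0.12 to 0.18) and Brpf1 (-0.12, 95% interval -0.26 to 0.02) did not pass. Brd1 was called higher with library size alone (0.26, adjusted p = 0.00409, edgeR), and Brpf1 passed as lower without sgCtrl 3 (-0.18, adjusted p = 0.0153, edgeR). Brpf3, the scaffold of HBO1, had 33.3, 39.8 and 32.5 CPM in sgSgf29 libraries, against 46.3, 51.3 and 32.7 CPM in sgCtrl libraries. The sgCtrl 3 library lay within the range of the sgSgf29 libraries (log2 fold change -0.29, adjusted p = 0.0351, edgeR). In edgeR its call was lost without sgSgf29 1 (log2 fold change -0.25, adjusted p = 0.155) or sgSgf29 3 (-0.23, 0.154). The same held without sgCtrl 1 (-0.24, 0.125) or sgCtrl 2 (-0.16, 0.234). The Brpf3 call was also lost with upper-quartile scaling (adjusted p = 0.0552, edgeR) and in limma-voom (0.0706). With library size alone the value was -0.06 and not called (adjusted p = 0.679, edgeR). Without sgCtrl 3 it was -0.47. Cecr2, the partner of an ISWI remodeler, was counted 0 times in each sgSgf29 library, against 0, 2 and 0 times in the sgCtrl libraries, and was at or under the floor in all 6.

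The ratio of the counts of 2 related members within a library was compared for 10 pairs. The groups did not overlap for 7 of them, and the exact permutation test, two-sided, gave each of these p = 0.1 (adjusted p = 0.143 over the 10 pairs), the smallest p this design allows. Among single genes the groups did not overlap for 72.1% of all genes tested, and no such share was made for other pairs. The number of pairs without overlap is therefore not read as a feature of these pairs. The ratio of Hdac4 to Hdac9 was 6.45, 4.02 and 4.48 in sgSgf29 libraries, against 2.03, 1.77 and 2.08 in sgCtrl libraries. Here the difference on the log2 scale was 1.32, the widest of the pairs. The ratio of Hdac6 to Hdac10 was 3.43, 3.47 and 3.54 in sgSgf29 libraries, against 1.88, 1.88 and 1.96 in sgCtrl libraries (difference 0.87), so that Hdac10 was lower relative to Hdac6 in each sgSgf29 library. Kat6a to Kat6b differed by 0.52, Hdac5 to Hdac7 by 0.41, Sirt6 to Sirt7 by -0.58 and Brd7 to Brd9 by -0.23. Ratios of Ep300 to Crebbp, Brd2 to Brd3 and Brpf1 to Brpf3 overlapped between the groups (differences 0.06, -0.08 and 0.16, exact permutation p = 0.4 each).

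**Figure D4:**
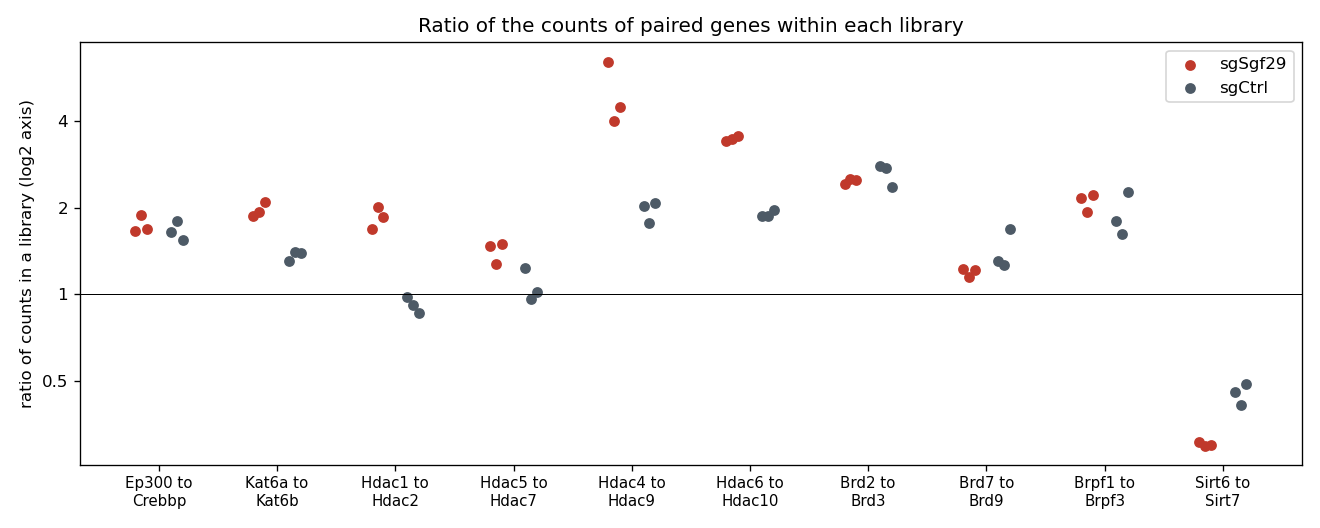
Ratio of counts within a library (log2 axis) for 10 pairs of related acetylation genes, with the 3 sgSgf29 libraries left of the 3 sgCtrl libraries. Each point is a library. Hdac1 to Hdac2 lies above 1 in all sgSgf29 libraries (1.69 to 2.01) and below 1 in all sgCtrl libraries (0.858 to 0.980). Counts are not scaled for gene length, and those of Gm10093 are left out.

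The complexes and cofactors around the members were read from lists that share some genes, such as Rbbp4, Rbbp7 and Actl6a, and their counts stand beside the 34.4% of all genes that were lower and the 35.4% that were higher. Of 15 NuA4/TIP60 partners 8 were lower and 5 higher (edgeR), and their median was -0.21 on the log2 scale, against 0.01 over all genes. They ran from Ruvbl2, an AAA ATPase of the complex (-1.06), to Epc2, a scaffold subunit (0.77), and so the lower Brd8 and the higher Kat5 and Yeats4 stood among partners of both directions. Of 6 MOZ/MORF and HBO1 partners 1 fell (Jade3, -0.44) and 1 rose (Ing4, 0.52), and of 11 MSL and NSL partners 3 fell and 3 rose (median -0.04). Among corepressor partners of class I enzymes, NuRD had 6 lower and 3 higher of 12 (median -0.17, Mta1 at -0.86 and Mbd2, a reader of methylated DNA, at 0.71). SIN3 had 6 lower and 2 higher of 14 (median -0.07, Rbbp7, a histone chaperone, at -0.72 and Arid4a at 0.62). CoREST and MiDAC had 1 lower and 3 higher of 10 tested, with Phf21a, a reader of unmodified histone tails, at 1.76, and NCoR/SMRT had 0 lower and 2 higher of 5. Mta1, Mbd2, Rbbp7, Arid4a and Phf21a are each the largest called fall or rise of a list. Their size beside Hdac1 or Hdac2 therefore says nothing of the other partners. The largest fall of CoREST and MiDAC (Rcor2, -0.52) and the largest rise of NCoR/SMRT (Tbl1x, 0.43) were smaller than the change of Hdac2.

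Of 17 tested SWI/SNF and ISWI partners 9 were lower and 6 higher (median -0.22), from Bcl7a at -0.87 to Hmgxb4 at 0.69. Of 28 other acetyl-lysine readers 8 were lower and 10 higher (median 0.03), from Dpf1 at -1.43 to the low-level Brdt at 1.29. Cofactor supply was read as well. Of 10 genes of acetyl-CoA supply 4 fell and 4 rose (median -0.02). Acss2, which makes acetyl-CoA from acetate, had 29.5, 23.8 and 23.5 CPM in sgSgf29 libraries, against 6.04, 7.63 and 7.59 CPM in sgCtrl libraries, and was higher in each sgSgf29 library (log2 fold change 1.84, adjusted p = 6.88e-11, edgeR). Slc25a1, the mitochondrial citrate carrier, was at -0.82. Of 8 tested genes of NAD supply, the cosubstrate of sirtuins, 6 fell and 1 rose (median -0.42), with Nmnat3 at -0.94 and Slc25a51, the mitochondrial NAD carrier, at 0.28.

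Compared per kilobase of merged exon, the members' levels spanned from 0.249 ± 0.0444 CPM per kb for Hdac11 to 50.0 ± 1.51 CPM per kb for Yeats4 in sgSgf29 cells (SD, n = 3), leaving out Cecr2. Yeats4 and Hdac1 held the first and second place in both groups. Hdac10 had 3.61 ± 0.205 CPM per kb in sgSgf29 cells, the place of rank 29 of 39, and ranked 14 in sgCtrl cells. Hdac6 ranked 19 in sgSgf29 and 11 in sgCtrl cells, Hdac2 ranked 9 in sgSgf29 and 4 in sgCtrl cells, and Sirt2 ranked 12 in sgSgf29 and 20 in sgCtrl cells. Ep300 at 5.12 ± 0.383 and Crebbp at 3.10 ± 0.190 CPM per kb in sgSgf29 cells stayed in the lower part of the list.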

How the data were processed

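Messenger RNA of 6 libraries was analysed; the other samples of the series, of chromatin immunoprecipitation, were not used here. The authors deposited raw counts per gene in 1 table. The paper names STAR and featureCounts on mm10, whereas STAR 2.6.0a and GRCm38 stand in the submitters' processing notes. The kit is directional. For annotation and strand setting, nothing was given in the sources used here. The 5 bookkeeping entries (28.5 to 30.1% of the table in sgSgf29 and 25.8 to 31.4% in sgCtrl libraries) were left out. Counts were filtered by filterByExpr (minimum count 10, total 15), scaled by TMM and tested over 11169 genes by edgeR 4.0.16 (quasi-likelihood, R 4.3.3), with p-values adjusted by Benjamini-Hochberg. Alternatives used other scalings and filters, DESeq2 1.42.0, limma-voom (limma 3.58.1), a replicate block and each library left out. The procedure was tested on simulated data. Exact permutation tests compared the ratios of 10 pairs. Exon lengths and overlaps are from GENCODE M21, coordinates from RefSeq GRCm38.p6. Without knowing the strand setting, reads of genes that overlap on opposite strands cannot be assigned with certainty. Ribosomal protein genes took 12.3 to 13.9% of gene counts in sgSgf29 and 19.2 to 19.9% in sgCtrl libraries, and TMM factors were 1.06 to 1.10 and 0.917 to 0.934.

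The members and the lists were chosen with earlier results of these data known. Every member was described; of each partner list, the called genes with the largest rise and fall could be named, and of the marker lists the highest marker of another lineage. Gm10093 was named after its values were seen.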

Additional observations from a re-analysis of the deposited data

How the results depend on the processing

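Of the 27 called members, 16 kept direction and call under all 15 alternatives, namely Hdac10, Hdac6, Hdac9, Hdac11, Hdac1, Hdac2, Ep300, Crebbp, Kat6a, Kat5, Sirt2, Sirt7, Atad2, Brd8, Yeats4 and Bptf. No such share is given for all called genes, so this number is not read as a feature of the members. Scaling by library size alone put the median of all genes at 0.24 on the log2 scale, against 0.01 with TMM, and gave 2385 genes lower and 5575 higher (29.96% of calls lower, against 49.3%), with 7 members lower and 18 higher. It turned the sign of the called Hdac3 (0.068) and Sirt6 (0.031), and of Naa40 (0.23) and Brd7 (0.17), which it called higher; relative to the median of all genes these stood at -0.18, -0.21, -0.01 and -0.07. Kat6b (0.21), Kat8 (0.09), Sirt1 (0.18) and Brpf1 (0.11) also turned sign there, uncalled in both scalings. In that scaling 0 writers, 5 classical deacetylases, 0 sirtuins and 2 readers were called lower, and 6, 3, 4 and 5 were called higher. Leaving out each library in turn gave 11 to 16 members lower and 9 to 12 higher, 3430 to 3833 genes lower and 3662 to 3943 higher. DESeq2 gave 15 members lower and 10 higher. Same-numbered libraries deviated together with correlations of only 0.005 to 0.078. Of the sgCtrl libraries, the same-numbered one correlated best with sgSgf29 2 (0.055) and sgSgf29 3 (0.078). The exception was sgSgf29 1, which correlated better with sgCtrl 2 (0.040). As these values were low, the numbers were not taken as pairs, though pairing is not excluded. With the replicate block, 15 members were lower and 12 higher, and 3937 and 4059 genes. The log2 ratio of Hdac1 to Hdac2 differed by 0.95 to 1.08 with each library left out. Low counts limit Hdac11 and Cecr2.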
